A study of Mus musculus with 2 samples.

Results

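Glycolysis splits glucose into pyruvate and lactate, and cells draw on it most when oxygen is short. The 38 genes described here are the enzymes of that route, its regulators and transporters, and genes switched on by low oxygen. They were taken from a list of 18 core glycolytic enzymes, 6 flux regulators and transporters, 2 subunits of the hypoxia-inducible factor (HIF) and 12 hypoxia targets, and each was found on the arrays through the RefSeq accession of its probes. All 38 had a probe, with 64 probes in all. In the arrays as a whole 14771 genes were measured in both embryos, and 37 of the 38 were among them. *Egln1* was well above background in 1 embryo only.

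The samples were 1 *Dullard*+/- and 1 *Dullard*-/- mouse embryo of the C57BL/6 strain at E7.5, each a whole embryo hybridised to its own 1-colour Agilent array. *Dullard* (*Ctdnep1*) encodes a phosphatase of the nuclear envelope and endoplasmic reticulum. The alleles were made by gene targeting and are not limited to any cell type. The study made a null allele and a LacZ allele from ES cells of different strains, called embryos of either kind *Dullard*-/-, and the labels do not say which was arrayed. There was no wild-type array, so the *Dullard*+/- embryo, which lacks 1 copy of the gene, is the control throughout. The labels give neither litter nor embryo size, and do not say outright that each RNA came from a single embryo. With 1 embryo per genotype there was no replicate check and no test, and the values compare these 2 embryos and not the genotypes.

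Both arrays lay on the same slide and were read in the same scan. The *Ctdnep1* probe was 4.31-fold lower in the *Dullard*-/- embryo (background-subtracted signal of 672 against 144), and where it lies in the transcript was not examined. Signals of the glycolysis and hypoxia genes are given below as multiples of the 75th percentile of their array, which was 286 for the *Dullard*+/- and 264 for the *Dullard*-/- embryo. A log2 fold change is always *Dullard*-/- over *Dullard*+/-, averaged over the probes of a gene. The ± value is the error from the SD between replicate spots of similar signal. It covers the array and not the spread between embryos. Different probes of 1 gene disagreed more, with an SD of 0.29 in log2 fold change over 3747 genes and 0.27 over the 14 members read by several probes. Scaling shifts all genes of an array alike. Without it the median of all genes moved from 0.01 to -0.10. The members' median exceeded that of all genes by 0.20 with or without scaling, as a common shift must leave it, but by 0.12 with the brightest probe or with the normexp background correction.

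The E7.5 embryo before its circulation starts is known to take up much glucose and to release much of it as lactate. HIF joins an oxygen-sensitive alpha subunit to a constant partner. In oxygen, prolyl hydroxylases mark the alpha subunit for destruction through *Vhl*. When oxygen falls the subunit persists, enters the nucleus and binds a short core motif beside its targets, which include nearly the whole glycolytic route as well as genes for vessel growth, mitophagy and collagen hydroxylation. HIF is thus controlled mostly as a protein, and the mRNA of a subunit is a poor measure of its activity.

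The HIF core motif, ACGTG or GCGTG on either strand (CACGT or CACGC when read from the other), was searched in RefSeq promoters of GRCm38.p6, from 250 bases before to 50 after each annotated start. Of 38 members 34 had a promoter there, and those of *Ndrg1*, *Epas1*, *Slc2a3* and *Bnip3l* were not listed. The motif stood in at least 1 promoter of 31 of the 34 genes (91.2%), against 46.7% of all 27025 genes and 52.3% of protein-coding ones. By window it was 39 of 48 (81.2%), against 43.8% of all 32851 windows. Among core enzymes 15 of 18 had it, and the 3 without a match were *Gpi1*, *Tpi1* and *Eno2*. All 10 hypoxia targets with a listed promoter had it, as did the 5 flux regulators and transporters. ACGTG also lies inside the E-box CACGTG, the site of other factors, which 10.4% of member windows and 7.15% of all windows held. Base composition was not matched. A match is a description of the letters and not evidence of binding.

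The 250 bases before the start are shown for 5 of the members past 1.3-fold in favour of the *Dullard*-/- embryo, which are *Bnip3*, *Adm*, *Ddit4*, *P4ha2* and *Slc16a3*, and for *Slc2a1*, a known HIF target whose signal was lower. Each reads from 5′ to 3′ along the gene, in lower case with matches in capitals.
*Bnip3* (chr7:138909507-138909756, - strand): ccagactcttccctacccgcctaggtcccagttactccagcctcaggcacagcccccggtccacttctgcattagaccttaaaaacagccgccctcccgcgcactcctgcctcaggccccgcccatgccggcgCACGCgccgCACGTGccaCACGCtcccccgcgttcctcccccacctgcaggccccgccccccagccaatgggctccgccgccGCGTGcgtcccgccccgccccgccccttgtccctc
*Adm* (chr7:110627407-110627656, + strand): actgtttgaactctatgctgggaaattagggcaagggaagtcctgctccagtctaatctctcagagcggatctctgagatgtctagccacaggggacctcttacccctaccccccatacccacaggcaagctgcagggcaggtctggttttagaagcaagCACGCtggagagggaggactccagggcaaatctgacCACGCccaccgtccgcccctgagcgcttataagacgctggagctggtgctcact
*Ddit4* (chr10:59951771-59952020, - strand): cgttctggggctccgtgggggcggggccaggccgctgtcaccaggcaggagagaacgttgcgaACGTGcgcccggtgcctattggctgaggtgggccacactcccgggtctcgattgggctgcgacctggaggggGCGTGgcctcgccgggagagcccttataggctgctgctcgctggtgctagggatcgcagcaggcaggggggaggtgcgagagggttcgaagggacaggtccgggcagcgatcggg
*P4ha2* (chr11:54100674-54100923, + strand): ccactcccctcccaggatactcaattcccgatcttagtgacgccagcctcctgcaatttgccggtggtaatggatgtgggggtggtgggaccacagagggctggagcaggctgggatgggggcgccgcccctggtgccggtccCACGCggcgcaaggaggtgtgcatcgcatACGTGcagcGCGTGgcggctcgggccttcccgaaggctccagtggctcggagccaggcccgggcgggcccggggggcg
*Slc16a3* (chr11:120948817-120949066, + strand): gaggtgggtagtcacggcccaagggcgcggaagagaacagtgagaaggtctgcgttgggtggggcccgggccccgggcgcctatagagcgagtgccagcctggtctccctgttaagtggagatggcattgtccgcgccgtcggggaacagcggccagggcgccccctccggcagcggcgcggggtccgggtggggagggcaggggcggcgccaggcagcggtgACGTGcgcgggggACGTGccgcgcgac
*Slc2a1* (chr4:119108495-119108744, + strand): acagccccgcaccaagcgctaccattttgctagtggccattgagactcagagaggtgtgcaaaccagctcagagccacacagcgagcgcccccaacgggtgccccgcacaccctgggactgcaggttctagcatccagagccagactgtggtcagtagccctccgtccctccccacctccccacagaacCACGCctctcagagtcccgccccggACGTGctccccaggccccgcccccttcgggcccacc
*Bnip3* had 5 matches between 35 and 117 bases before the start, and a pair of these overlapped in 1 E-box. *P4ha2* had 3 in the stretch shown. *Adm*, *Ddit4*, *Slc16a3* and *Slc2a1* had 2 each. *Slc2a1* and *Slc16a3*, which differed in direction, thus both carried a pair close to the start, 36 and 61 bases before it in *Slc2a1* and 14 and 27 in *Slc16a3*. Of the 10 members at least 1.3-fold higher, 9 had a listed promoter and all 9 held the motif. Of the other 27 measured members 24 had one, and 21 of these held it.

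Most members had higher signals in the *Dullard*-/- embryo, by small amounts. Of the 37 measured in both embryos 28 were above 0 in log2 fold change and 9 below, with a median of 0.21 against 0.01 for all genes, of which 52.0% were above 0. With scaling to the median 31 members were above 0 and without scaling 25. The signs of *Gapdh*, *Eno2* and *Car9* turned with scaling to the median, and those of *Gpi1*, *Pfkm* and *P4ha1* without scaling. All of these genes were near 0, *P4ha1* as the mean of probes at 0.48 and -0.39. At least 1.3-fold higher were 10 of 37 members, while 8.92% of all genes were. At least 1.3-fold lower were 2, while 8.14% of all genes were. No member differed 2-fold in either direction, where 0.894% of all genes were higher and 0.765% lower. The 10 higher members were *Adm*, *Hk1*, *Ndrg1*, *Slc16a3*, *Bnip3*, *P4ha2*, *Ddit4*, *Hk2*, *Ldhb* and *Aldoc*. Of these only *Hk1*, *Slc16a3* and *Bnip3* were read by more than 1 probe. The 2 lower ones were *Pfkfb4* and *Epas1*. Without scaling the counts were 3 and 2 of 37, while 5.55% of all genes were then higher and 13.8% lower. Higher genes made up 28.7% of all genes past 1.3-fold in that case, against 52.3% with scaling.

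**Figure D1:**
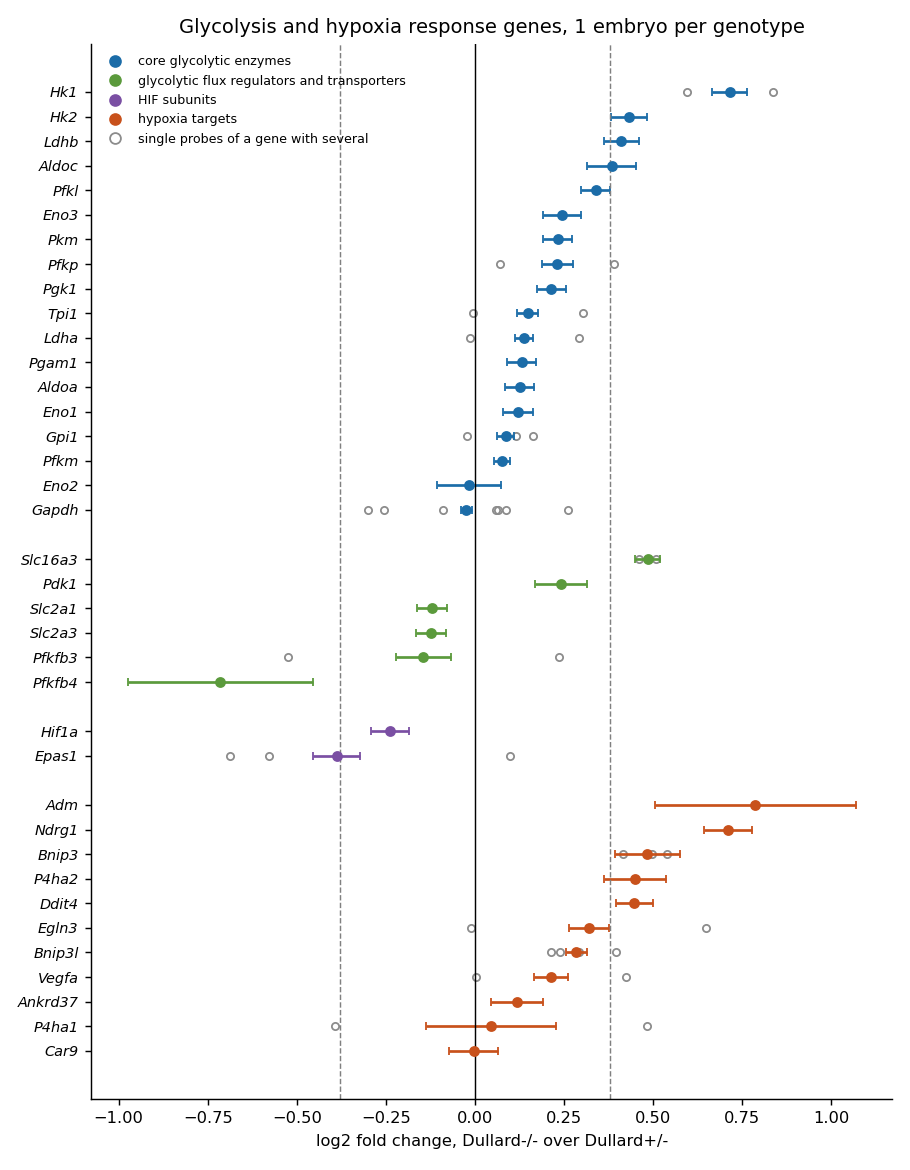
Log2 fold change (*Dullard*-/- over *Dullard*+/-, 1 embryo each) of the 37 members measured in both embryos, by role. Filled points are genes with the error from replicate spots, open grey points are single probes, and dashed lines mark 1.3-fold. Most core enzymes and hypoxia targets lie to the right of 0, both HIF subunits to the left, and the probes of *Gapdh*, *Epas1*, *Pfkfb3*, *Egln3* and *P4ha1*, among others, lie on both sides.

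Signal matters to such counts, because bright probes vary less. Of the members 18 lay among the brightest 25% of all genes and 13 in the next class of that size. In the brightest class 58.3% of all genes were above 0, their median was 0.03, and 2.46% were at least 1.3-fold higher. There 14 of 18 members were above 0 and 4 were at least 1.3-fold higher. The 13 core enzymes in that class had a median of 0.15, and 12 of them were above 0. The median of the 200 other genes nearest in signal to each core enzyme never passed 0.06, and 16 of 18 core enzymes lay above it.

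**Figure D2:**
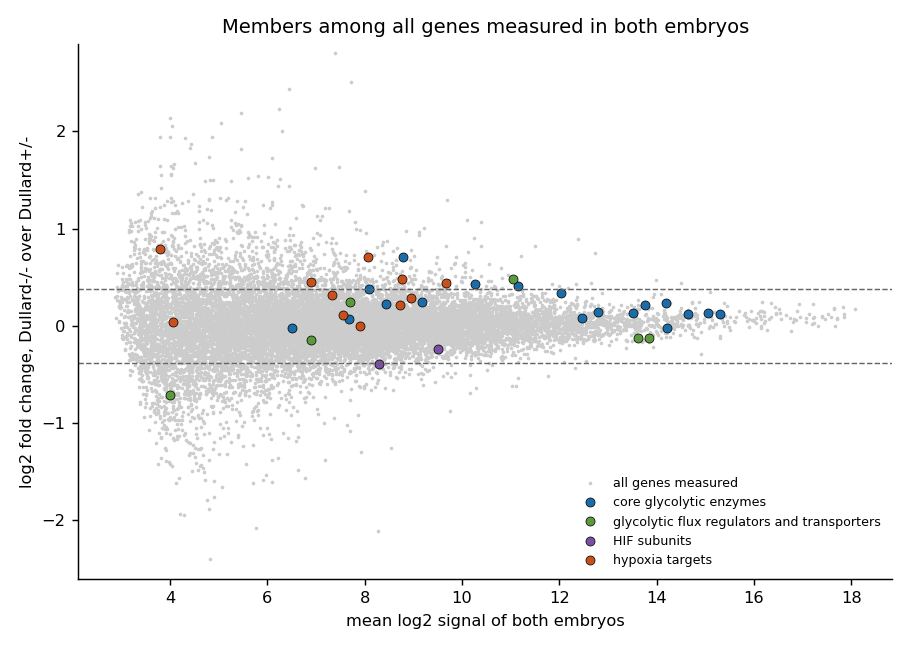
Log2 fold change (vertical) against the mean log2 background-subtracted signal of both embryos (horizontal) for the genes measured in both, with members coloured by role and dashed lines at 1.3-fold. The grey cloud of all genes narrows to the right, where 18 members lie, and 1 gene falls outside the plotted range.

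Among the core enzymes 16 of 18 were above 0 (14 without scaling, 18 with scaling to the median) and 4 were at least 1.3-fold higher, with a median of 0.18. Of all genes 52.0% were above 0 and 8.92% at least 1.3-fold higher. The first step stood out in size. *Hk1*, which traps glucose in the cell by adding a phosphate, was read by 2 probes. The brighter went from 4.31 in the *Dullard*+/- to 7.68 in the *Dullard*-/- embryo and the dimmer from 0.36 to 0.55. Its log2 fold change was 0.71 ± 0.05 (1.64-fold), the largest of the core enzymes. *Hk2*, the hexokinase known as a HIF target, went from 3.87 to 5.21, a log2 fold change of 0.43 ± 0.05. The excess of *Hk1* over *Hk2* was 0.28 ± 0.07, about the SD between probes of a gene.

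The steps after hexokinase moved less. *Gpi1*, which turns the glucose phosphate into fructose phosphate, had 3 probes between -0.02 and 0.16 and a mean of 0.09 ± 0.02. Phosphofructokinase, the committed step, has 3 subunit genes. *Pfkl*, the liver-type subunit, went from 13.5 to 17.1, a log2 fold change of 0.34 ± 0.04. *Pfkp*, the platelet type, had probes at 0.39 and 0.07. *Pfkm*, the muscle type, was the only member printed as 10 replicate spots, which gave 0.08 ± 0.02. Single *Pfkm* spots ran from -0.06 to 0.26 (SD 0.09), with 9 of 10 above 0. *Pfkl* exceeded *Pfkm* by 0.26 ± 0.05, about the SD between probes of a gene.

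Aldolase splits the sugar into a pair of trioses. Its main form *Aldoa* went from 141 to 154, or 0.12 ± 0.04, and was at -0.02 with the normexp background correction. The brain form *Aldoc* went from 0.87 to 1.14, or 0.38 ± 0.07, just past 1.3-fold. *Tpi1*, which interconverts the trioses, was at 0.30 with 1 probe and -0.01 with the other. All 9 enzyme genes of this upper part were above 0, with a median of 0.23.

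In the lower part 7 of 9 were above 0, with a median of 0.14. *Gapdh*, which makes the first NADH and is often used as a reference gene, had 7 probes. They ran from -0.30 to 0.26, with 4 above 0 and 3 below, and averaged -0.02 ± 0.02. The brightest *Gapdh* probe went from 193 to 201 and a dimmer probe from 45.2 to 36.7. Whether the probes also bind the many processed copies of *Gapdh* was not examined. *Pgk1*, which makes the first ATP, went from 46.7 to 54.1, a log2 fold change of 0.21 ± 0.04. *Pgam1*, the mutase that follows, was at 0.13 ± 0.04. Enolase has 3 genes here. *Eno1*, the general form, was at 0.12 ± 0.04, the muscle form *Eno3* at 0.24 ± 0.05 and the neuronal form *Eno2* at -0.02 ± 0.09. *Eno1* thus lay 0.14 ± 0.10 above *Eno2* and 0.12 ± 0.07 below *Eno3*.

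*Pkm*, the pyruvate kinase of dividing cells, went from 62.4 to 73.3, a log2 fold change of 0.23 ± 0.04. Lactate dehydrogenase showed a split between its subunits. *Ldha*, the subunit known as a HIF target, had probes at 0.29, 0.14 and -0.01, a mean of 0.14 ± 0.03. *Ldhb*, the heart-type subunit, went from 7.13 to 9.48, or 0.41 ± 0.05. *Ldhb* thus exceeded *Ldha* by 0.27 ± 0.06. *Aldoc* exceeded *Aldoa* by a like amount, 0.26 ± 0.08. Each of these differences was close to the SD between probes of a gene.

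**Figure D3:**
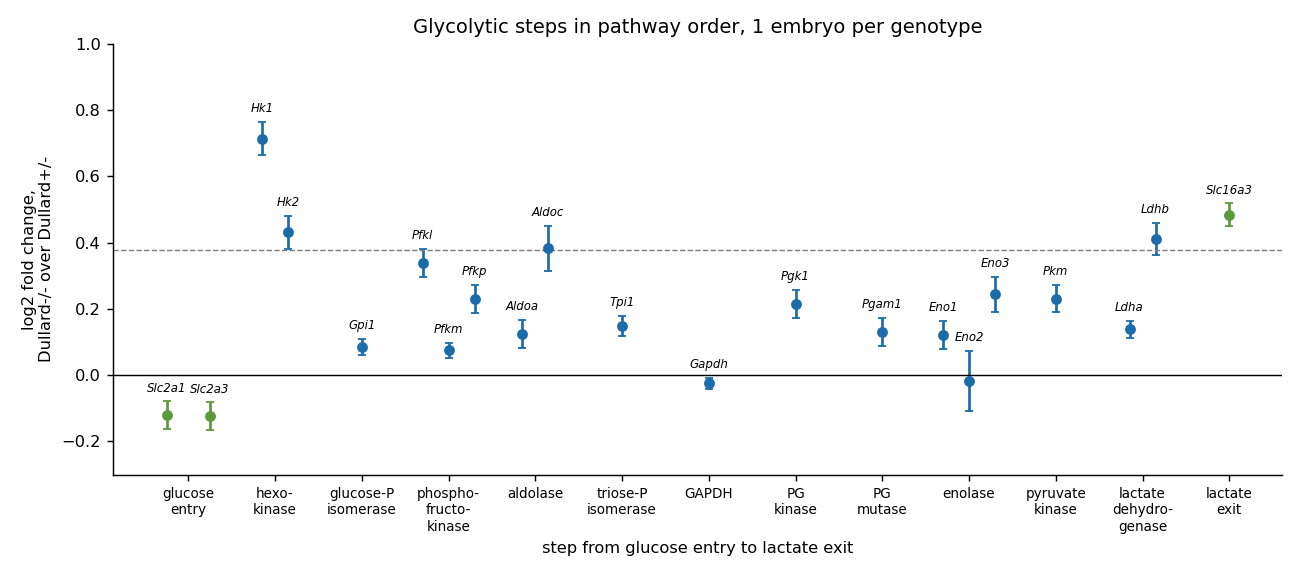
Log2 fold change (vertical, *Dullard*-/- over *Dullard*+/-, 1 embryo each) of transporters (green) and enzymes (blue) in pathway order from glucose entry to lactate exit. Bars are the error from replicate spots and the dashed line marks 1.3-fold. Both glucose transporters lie below 0, while hexokinase at the start and *Ldhb* and *Slc16a3* at the end lie highest.

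The transporters at the ends of the route went opposite ways. *Slc2a1*, the general glucose transporter GLUT1, went from 47.8 to 43.97, and *Slc2a3*, the high-affinity transporter GLUT3, from 55.4 to 50.8. Their log2 fold changes were -0.12 ± 0.04 and -0.12 ± 0.04, with a difference between them of 0.003 ± 0.06. Both stayed below 0 under the 12 other ways of processing. Each was read by 1 bright probe, however, and several of these ways cannot change such a value. *Slc16a3* (MCT4), which exports lactate and carried as many motif matches as *Slc2a1*, had probes that went from 6.93 to 9.53 and from 6.15 to 8.74. Its log2 fold change of 0.48 ± 0.03 was the highest of the 6 flux genes and its probes differed little.

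The regulators of flux were less clearly measured. *Pfkfb3* makes the sugar bisphosphate that activates phosphofructokinase. Its probes, annotated to different transcripts, were at 0.24 (1.08 to 1.27) and -0.53 (0.19 to 0.13), a mean of -0.15 ± 0.08. Which transcripts they read was not examined. *Pfkfb4*, of the same family, rested on 1 dim probe that went from 0.07 to 0.05, or -0.71 ± 0.26, and its other probe was not well above background. With the normexp background correction *Pfkfb4* was at -0.05. *Pdk1*, which inhibits pyruvate dehydrogenase, was at 0.24 ± 0.07. The 6 genes had a median of -0.12, with 2 above 0.

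The HIF subunits were both lower on average, *Epas1* not with its brightest probe. *Hif1a*, the main alpha subunit, went from 2.88 to 2.44, a log2 fold change of -0.24 ± 0.05. It remained negative under the 12 other ways of processing, several of which cannot change a gene read by 1 bright probe. *Epas1*, the alpha subunit that prevails in endothelium, had 3 probes that disagreed. The brightest went from 11.1 to 11.9, or 0.10, and the dimmer ones were at -0.58 and -0.69. Their mean was -0.39 ± 0.07, so the direction of *Epas1* depends on which probe is read.

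Prolyl hydroxylases mark HIF for destruction and are themselves induced by it. *Egln1* (PHD2), the main one in most cells, passed the background criterion in the *Dullard*+/- embryo alone. Its background-subtracted signal was 8.66 there and 5.61 in the *Dullard*-/- embryo, which gives a bound of at least 1.10-fold lower. This bound lies within the spot error of the probe, 0.30 in log2 fold change. *Egln3* (PHD3) had a probe that went from 0.41 to 0.64, a log2 fold change of 0.65, and another at -0.01. The members on the oxygen-sensing side thus gave no common direction.

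Among the hypoxia targets 10 of the 11 measured were above 0 and 5 were at least 1.3-fold higher, with a median of 0.32. Of all genes 52.0% were above 0 and 8.92% at least 1.3-fold higher. *Ndrg1*, a stress-induced gene of differentiation, went from 0.77 to 1.25 on its probe, a log2 fold change of 0.71 ± 0.07 (1.63-fold). *Bnip3*, a mitophagy receptor with the most motif matches of the promoters shown, had 3 probes between 0.42 and 0.54 and a mean of 0.48 ± 0.09. Its relative *Bnip3l* had 4 probes between 0.21 and 0.39 and a mean of 0.28 ± 0.03. All 7 probes of this receptor pair were above 0, and *Bnip3* exceeded *Bnip3l* by 0.20 ± 0.10.

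*Ddit4* (REDD1), an inhibitor of mTORC1 that also answers to other stresses, went from 2.53 to 3.44, a log2 fold change of 0.45 ± 0.05. *P4ha2*, a collagen prolyl hydroxylase, went from 0.37 to 0.51, or 0.45 ± 0.09. *P4ha1*, which does the same work, was dim, and its probes were at 0.48 and -0.39. *Adm* (adrenomedullin), a vasodilator peptide, had the highest value of all members at 0.79 ± 0.28 (1.72-fold). It rested on 1 dim probe that went from 0.04 to 0.07, and the value was 0.25 with the normexp background correction.

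Other well known targets differed less. *Vegfa*, the vessel growth factor, had a dim probe at 0.42 and a bright one at 0.004, for which the signal was 4.11 and 4.12. *Ankrd37*, an ankyrin repeat gene, was at 0.12 ± 0.07. *Car9*, a carbonic anhydrase that is nearly silent in many tissues without hypoxia, had a signal of 0.87 in both embryos and a log2 fold change of -0.004 ± 0.07.

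**Figure D4:**
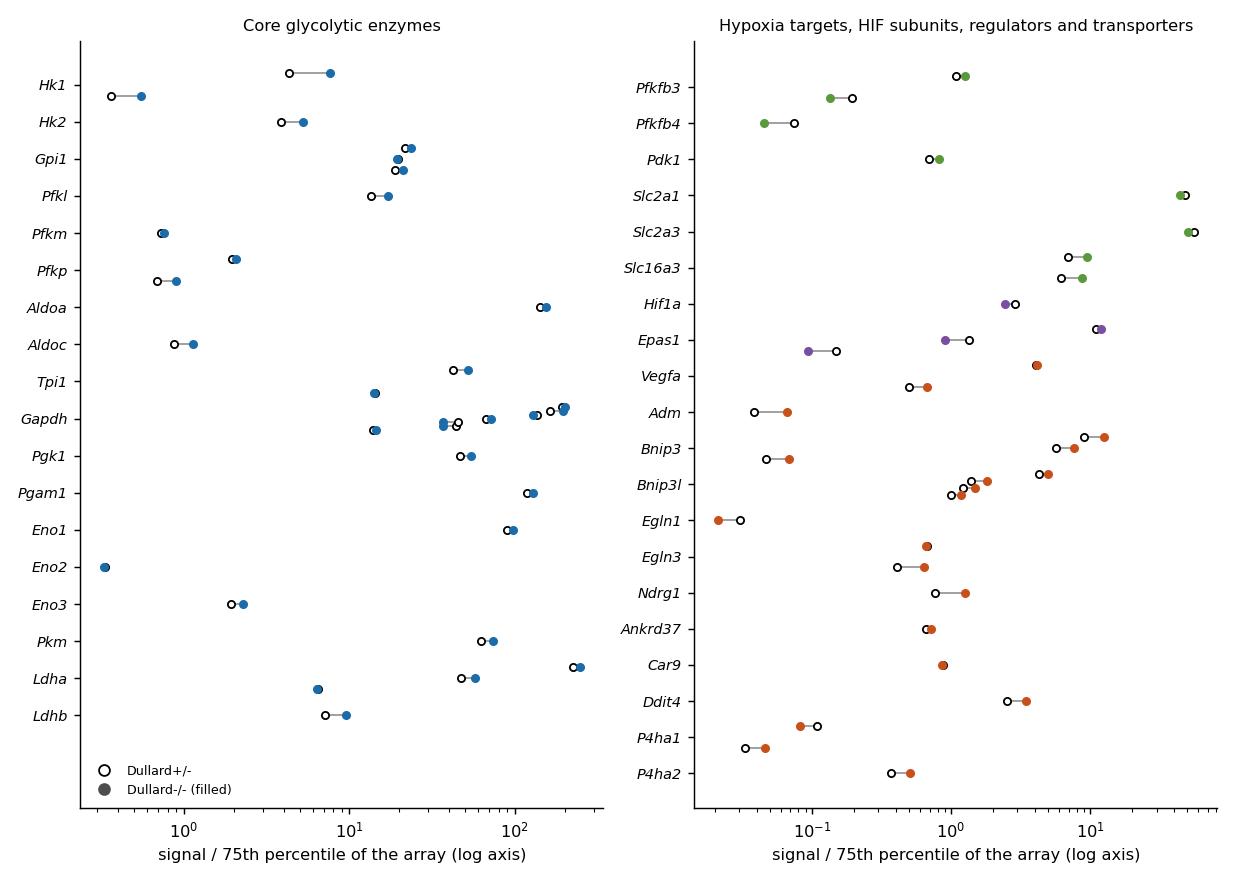
Signal of each probe of the members as a multiple of its array's 75th percentile (log axis), with the *Dullard*+/- embryo as open and the *Dullard*-/- embryo as filled points joined by a line. Levels of different probes are not comparable, only the 2 points of each line. The lines of *Hk1*, *Slc16a3*, *Bnip3* and *Ndrg1* run to the right in the *Dullard*-/- embryo, and those of *Slc2a1* and *Slc2a3* to the left.

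Set side by side, the median of the hypoxia targets exceeded that of the core enzymes by 0.14. The groups differed in signal, with 13 of 18 core enzymes among the brightest 25% of genes and 1 of 11 hypoxia targets. Each gene was also set against the 200 other genes nearest in signal. At least 90% of these were lower for 9 of 18 core enzymes and 5 of 11 hypoxia targets, a like share. The median excess over the median of these genes was 0.15 for core enzymes and 0.30 for hypoxia targets. With only the brightest probe of each gene the target median exceeded the core median by 0.04, and the medians were then 0.21 and 0.18. Over all members, 8 of the 14 genes with several probes had probes of opposite sign.

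**Figure D5:**
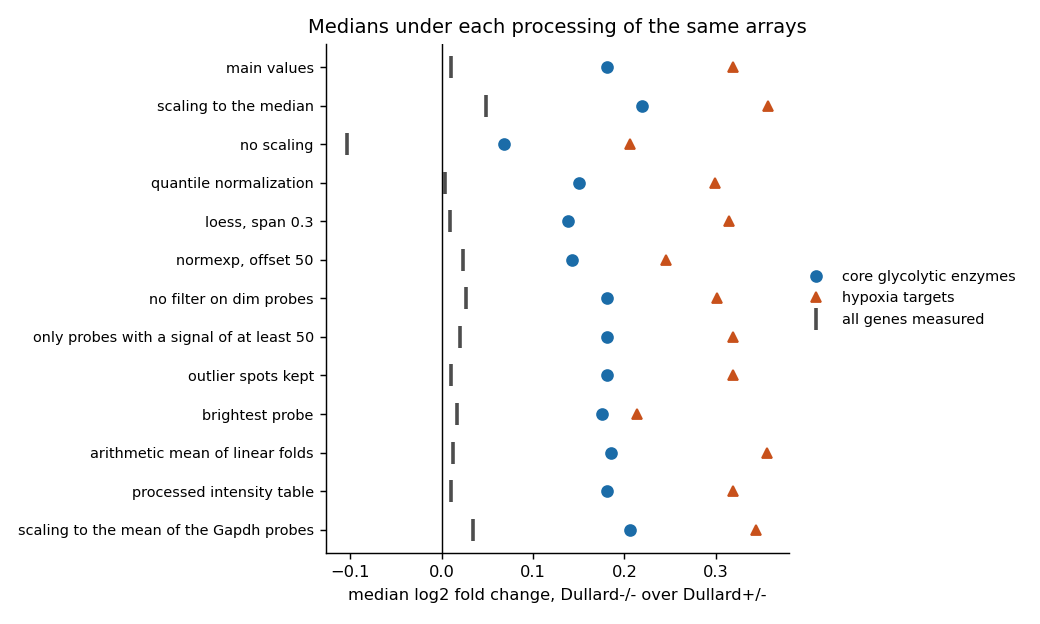
Median log2 fold change (*Dullard*-/- over *Dullard*+/-) of the 18 core enzymes (circles), the hypoxia targets (triangles) and all genes measured (bars) under each way of processing the same arrays. Both groups lie to the right of all genes in each row, and they nearly meet when only the brightest probe is read.

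Genes beside the members in the same pathways were counted in the same way. Of 18 other glycolytic isozymes and regulators measured, 2 were at least 1.3-fold higher and 2 lower, with a median of 0.03. The furthest was *Hkdc1*, a further hexokinase family gene, at 1.63 ± 0.08 (3.09-fold), more than either member hexokinase. *Slc16a1* (MCT1), a lactate transporter like *Slc16a3*, was at -0.84 ± 0.18, the opposite direction. Its probe was dim, with a background-subtracted signal of 47.7 against 24.6. Of 12 other components of the HIF pathway 1 was higher and 1 lower. These were *Arnt*, the constant partner of *Hif1a*, at 0.42 ± 0.09 and *Hif1an*, an inhibitor of HIF, at -0.46 ± 0.09. The 2 *Arnt* probes disagreed. Their mean background-subtracted signal went from 417 to 391, while the mean of their log2 fold changes was 0.42. Of 27 further hypoxia-induced genes measured, out of 32 listed, 3 were higher (11.1%, near the share of all genes) and 1 was lower (3.70%). The median was 0.07. The higher ones were *Stc2* at 0.81 ± 0.12, *Kdm3a*, a histone demethylase, at 0.61 ± 0.09 and *Plod2*, a collagen lysyl hydroxylase, at 0.38 ± 0.08. The lower one was *Igfbp3*, a binding protein of insulin-like growth factors, at -0.45 ± 0.24 on a dim probe. The median of the member targets was 0.32.

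Routes that branch from glycolysis, follow it or oppose it were counted too. All 7 pentose phosphate genes were within 1.3-fold, with a median of 0.12. All 17 genes of the tricarboxylic acid cycle were too, with a median of 0.01 and a range from -0.15 to 0.16. Of 9 genes of pyruvate import and pyruvate dehydrogenase only *Pdp1*, a phosphatase that activates the complex against *Pdk1*, was past it, at 0.50 ± 0.06. Gluconeogenesis, which runs the route in reverse, had a median of -0.15 over 6 genes, of which 1 was at least 1.3-fold higher and 1 lower.

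The embryos also differed in other gene groups, and their part in the values above was not tested. Lists marking tissues of the embryo were well above background in both, with 5 of 5 epiblast markers, 10 of 10 visceral endoderm markers and 8 of 9 of extraembryonic ectoderm and trophoblast. Of the 5 epiblast markers 2 were at least 1.3-fold higher, *Otx2* at 0.82 and *Sox2* at 0.44. The summed signal of visceral endoderm markers was 183 in the *Dullard*+/- and 171 in the *Dullard*-/- embryo, and that of trophoblast markers 19.8 and 19.2. Trophoblast markers went both ways, with 2 of 8 above 0 and 6 below, from *Prl3d1* at 1.07 to *Ascl2* at -0.74. Streak and mesoderm markers summed to 11.3 and 17.8, but went both ways, with 3 of 6 above 0 and 3 below, from *Mixl1* at 1.39 to T (Brachyury) at -1.19. Red blood cell markers summed to 3.99 and 1.59, and all 5 measured in both embryos were at least 1.3-fold lower. Of 10 decidua markers, the maternal tissue around the embryo, 8 and 7 were well above background, *Prl8a2* and *Dcn* in neither, and the sums were 3.34 and 3.33. Of the 7 decidua markers measured in both embryos 2 were at least 1.3-fold higher and 2 lower. In a whole embryo, fewer cells of a type and less RNA per cell cannot be told apart. Of 11 immediate early and heat shock genes, which can respond quickly to handling, 5 were at least 1.3-fold higher, with a list median of 0.34. Of all genes 8.92% were that much higher. All 5 were immediate early genes, among them *Ier3* at 1.17 ± 0.26 and *Fos* at 0.74 ± 0.06, both on dim probes. *Egr1* was at 0.73 ± 0.07 on a brighter probe, with a background-subtracted signal of 177 against 271. The heat shock genes measured were within 1.3-fold. Of 11 integrated stress response genes, a pathway that can also induce *Ddit4*, 1 was higher and 1 was lower, and the median was -0.03.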

How the data were processed

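RNA of 1 *Dullard*+/- and 1 *Dullard*-/- whole embryo was hybridised to 1 array each. The labels give 0.1 µg of total RNA and the Low Input Quick Amp kit, while the study's methods give 20 ng and an Ovation Pico amplification. Both are named here without choosing, and either could affect dim probes most. The authors deposited spot intensity values from Agilent Feature Extraction 10.10, per the labels, with the background already taken off, as well as processed intensity values, which are the same signals multiplied by a constant per array, 4.91 and 5.20.

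From the scanner signals, log2 values were taken minus the 75th percentile of each array over 43020 non-control spots, of which 206 with an outlier mark were left out. No spot was marked as saturated. Each probe is the mean of its spots. Each gene is the mean of the probes that both arrays marked as well above background (31242 and 29310 such spots). Names came from RefSeq accessions through a GRCm38.p6 gene table, which named 30235 spots and left 12785 unnamed. The error pools the SD of the 40 replicated probes nearest in signal. No test was run, since each genotype had 1 embryo. Counts are of genes past 1.3-fold and 2-fold, beside all genes. Precision is limited by the number of arrays.

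The members, gene lists and thresholds were chosen with earlier results of these data known. All members are named, and of each other list at most the 4 genes farthest from 0. The genes nearest in signal and the scaling to *Gapdh* were added after seeing the data.

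Alternatives were scaling to the median, no scaling, quantile normalization, loess (span 0.3), normexp (offset 50, on median signals, since the columns used hold no mean signal), no filter on dim probes, only probes with a signal of at least 50, outlier spots kept, the brightest probe, linear averaging, the processed table and scaling to *Gapdh*. The steps were tested on simulated data in which all probes of a gene shifted alike. That checks the arithmetic and not how far a 1.3-fold difference in these arrays can be relied on. Python 3.11.15, numpy 2.4.6, pandas 2.3.3, matplotlib 3.10.9, R 4.3.3 and limma 3.58.1 were used.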

Additional observations from a re-analysis of the deposited data

How the results depend on the processing

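No paired analysis was possible because each genotype had 1 embryo, and no replicate could be left out. With 12 alternatives, 1 of them (scaling to *Gapdh*) chosen after seeing the data, the medians of the members, core enzymes and hypoxia targets stayed above 0 and above that of all genes, and no member passed 2-fold. Without scaling 3 members were at least 1.3-fold higher, and the medians of members, core enzymes and hypoxia targets were 0.10, 0.068 and 0.21, beside a median of -0.10 for all genes, of which 5.55% were then higher. With normexp 5 were higher and 0 lower, and the medians of members and hypoxia targets were 0.14 and 0.25, while 2.55% of all genes were then at least 1.3-fold higher. The cause was not tested. With the brightest probe the medians of members and hypoxia targets were 0.14 and 0.21, targets exceeded core enzymes by 0.038, and *Epas1* turned to 0.10. Members at least 1.3-fold lower numbered 1 with scaling to the median, with linear averaging and with scaling to *Gapdh*, and 0 with only probes of a signal of at least 50, which leaves out the *Pfkfb4* probe and the dimmest *Epas1* probe. *Hk1* and *Ndrg1* were past 1.3-fold under each of the 12, though several of these cannot change *Ndrg1*, which was read by 1 probe. Low signal limits *Adm*, *Pfkfb4*, *P4ha1* and *Egln1*.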

Other observations

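Some genes outside the 38, from the lists counted above, had large differences. *Vldlr*, a lipoprotein receptor listed here with the integrated stress response, was at a log2 fold change of 2.003 ± 0.10, and *Atf3*, a transcription factor of the same list, at -1.26 ± 0.21, both farther from 0 than any member. Their background-subtracted signals were low in 1 or both embryos, 40.9 against 152 for *Vldlr* and 36.8 against 14.2 for *Atf3*. Among glycolytic genes that are not members, *Pdk4*, a pyruvate dehydrogenase kinase like *Pdk1*, was at 0.69 ± 0.24 and the insulin-responsive glucose transporter *Slc2a4* at -0.42 ± 0.07. *Fbp1*, which opposes phosphofructokinase, was at -0.76 ± 0.26 and *Pcx*, which carboxylates pyruvate, at 0.60 ± 0.30. The probes of *Pdk4*, *Slc2a4*, *Fbp1* and *Pcx* were all dim, with background-subtracted signals under 50. Of the decidua list, *Angpt2*, an angiopoietin, was at -0.87 ± 0.12 and *Igfbp1*, a binding protein of insulin-like growth factors, at 0.72 ± 0.11.

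*Gapdh* is often taken as the reference of quantitative PCR. Scaled to the mean of its 7 probes, the members' median was 0.24 and 31 of 37 were above 0, with 10 at least 1.3-fold higher. This scaling moves every gene up alike, and the median of all genes was then 0.03, with 10.13% of them at least 1.3-fold higher. The 7 probes spanned 0.56 in log2 fold change, more than the log2 fold change of any core enzyme but *Hk1*.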
